A study of Mus musculus with 6 samples.

Results

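The Hippo pathway and its YAP-TEAD output were followed through 10 transcripts in mouse embryonic stem cells with and without E-cadherin. The genes were Yap1, Wwtr1, Tead1, Tead2, Tead4, Lats1, Lats2, Amot, Amotl2 and Ankrd1. They were found by symbol, from the Ensembl identifiers of the count table, and all 10 were present among its 55401 genes. All 10 also had enough counts to be tested. Both groups were V6.5 embryonic stem cells, and they differed in genotype. The first was wild type (WT) and the second was Cdh1-/-, with the gene of E-cadherin disrupted, called the knockout. Each group had 3 libraries, A, B and C, made from total RNA. Whether the replicates were separate cultures, and whether the knockout line was 1 clone, is not given in the sources used here, so p-values measure only the spread between these libraries.

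The Hippo pathway is a kinase cascade that restrains 2 related coactivators, YAP (Yap1) and TAZ (Wwtr1). When the cascade is active, the kinases LATS1 and LATS2 phosphorylate YAP and TAZ, which are then held in the cytoplasm or degraded. When it is inactive, YAP and TAZ enter the nucleus and activate transcription through the DNA-binding TEAD proteins. Cell contacts feed into the cascade, and E-cadherin junctions and the angiomotins AMOT and AMOTL2 are among the known inputs. Read counts report transcript levels and hold no measure of phosphorylation or of where YAP and TAZ lie in the cell.

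Totals ranged from 18020719 to 23381942 counts per library, and a level of 6 counts, the floor used here, corresponded to 0.257 to 0.333 CPM (counts scaled to a common library size). Cdh1 checked the labels: it stood at 559 ± 19.1 CPM in WT and 173 ± 9.05 CPM in knockout cells (SD, n = 3 each), 30.9% of the WT level. The second principal component (20.9% of the variance) set knockout replicate A at 43.5, apart from the other knockout libraries at -11.7 and -25.8. Chromosomes 14 and 1 had median log2 fold changes of 0.53 and -0.32 relative to all tested genes. The 6 tested genes of chromosome Y, which holds no member, had a median of -2.55. The chromosomes of every member except Lats2 lay between -0.04 and 0.03. The 10 listed embryonic stem cell markers were all detected. Their summed levels were 5144 to 5609 CPM in WT and 5724 to 6937 CPM in knockout cells. Of these 10, 2 were called higher, Tdgf1 (mean 1302 CPM in WT, 2014 CPM in knockout cells) and Fgf4. That is 20% of the list, beside 13.3% called among all tested genes. Sox2 (-0.03) and Sall4 (-0.11) had log2 fold changes below 0. Markers of 3 other cell types were summed in the same way. The 10 primitive endoderm markers gave 178 to 268 CPM in WT and 501 to 966 CPM in knockout cells, and all 10 passed the test as higher. Foxa2, 1 of these 10, had at most 6 counts in any WT library and 12 to 32 in the knockout libraries. It passed the low-count filter only through the knockout libraries, so its call carries no weight of its own. The 12 feeder fibroblast markers gave 32.0 to 53.8 CPM and 20.5 to 33.8 CPM, with Lum and Twist2 at or under 6 counts in every library. The 10 trophectoderm markers gave 28.3 to 37.4 CPM and 28.4 to 40.3 CPM, with Elf5 at or under 6 counts throughout.

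Of the 10 genes, 1 rose in knockout cells and 2 fell at an adjusted p under 0.05 in edgeR's quasi-likelihood test. Wwtr1 was the gene that rose, and Tead1 and Tead2 were those that fell. Across all 17325 tested genes 13.3% were called, 7.6% higher and 5.71% lower. The median log2 fold change was 0.10 over the 10 genes and -0.01 over all tested genes. Leaving out a library often removed calls. No member was called without WT replicate B, and Tead1 alone was called without WT replicate A or without knockout replicate C. Tead1 and Tead2 were called without WT replicate C, and Wwtr1 and Tead1 without knockout replicate B. Without knockout replicate A the same 3 genes were called and Amot was called higher as well. The groups did not overlap for these 3 genes alone among the 10, against 30.7% of all tested genes.

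**Figure D1:**
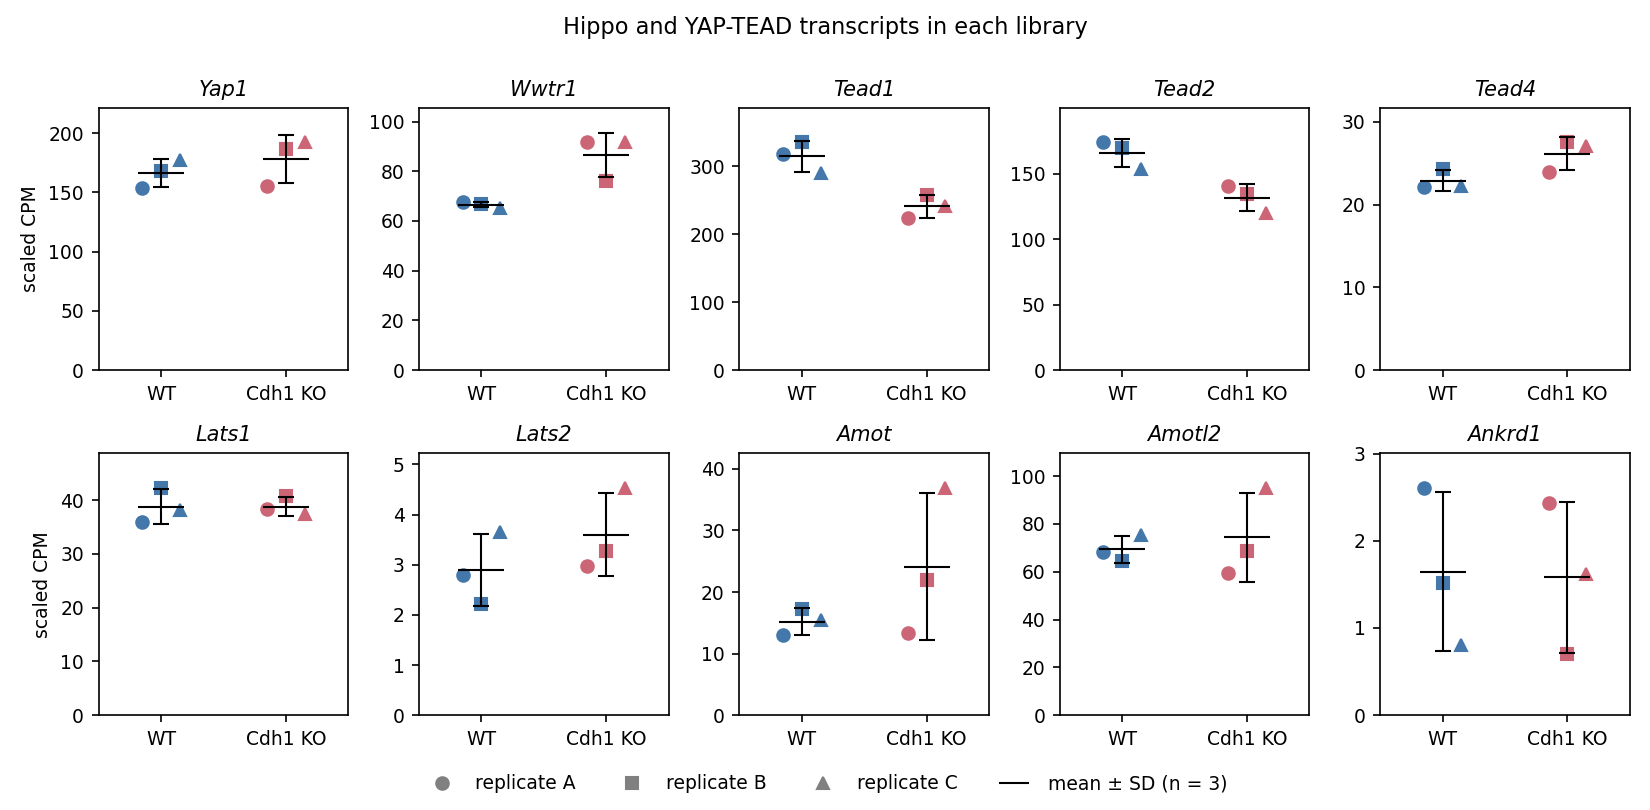
Level of each of the 10 transcripts in CPM scaled by library, one panel per gene with its own axis from 0; points are the replicates A, B and C, and bars give mean ± SD of 3 libraries per genotype. Wwtr1 is higher in every knockout library and Tead1 and Tead2 lower, while the remaining panels overlap.

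Of the genes of the 2 coactivators, Wwtr1 rose and Yap1 was not called. Yap1, the gene of YAP (ENSMUSG00000053110.13, chromosome 9, 7931999 to 8004596 in GRCm38), was counted at 154 CPM, 168 CPM and 177 CPM in the 3 WT libraries, in the order A, B, C. In the knockout it stood at 155 CPM, 187 CPM and 192 CPM. The groups overlapped, because knockout replicate A lay at the level of WT replicate A. The log2 fold change was 0.10 (standard error 0.10, adjusted p 0.577 in edgeR), with a 95% interval from -0.11 to 0.31, not adjusted for the number of genes. Wwtr1, the gene of TAZ (ENSMUSG00000027803.14, chromosome 3, 57455649 to 57575910), was counted at 67.5 CPM, 66.9 CPM and 65.3 CPM in WT. In the knockout it stood at 91.6 CPM, 76.1 CPM and 91.6 CPM, so that every knockout library lay above every WT library. Wwtr1 rose 1.30-fold (log2 fold change 0.38, standard error 0.10, 95% interval 0.17 to 0.58, adjusted p 0.0174 in edgeR). The call was lost without WT replicate A (adjusted p 0.0637), WT replicate B (0.0631), WT replicate C (0.0616) or knockout replicate C (0.0797), with log2 fold changes from 0.34 to 0.39 in those fits. Whether the genes changed unequally was examined through their ratio. Per exon length, Yap1 made up 74.0% ± 1.67 of the Yap1 and Wwtr1 transcripts in WT and 70.1% ± 3.92 in knockout cells (SD, n = 3 each). That difference of -3.94 percentage points was within the spread of the libraries (exact two-sided permutation p = 0.2, adjusted p = 0.4 over 6 shares; the smallest p that 3 against 3 libraries allow is 0.1).

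TEAD proteins bind DNA at a short motif, GGAATG or its reverse complement CATTCC, and the RefSeq promoter windows (GRCm38.p6, 250 bases before to 50 after a start site) were searched for both. Windows were found for 8 of the 10 genes, all but Tead1 and Tead4, and 5 of these 8 held the motif: Yap1, Wwtr1, Lats2, Amotl2 and Ankrd1. Of all 27025 genes with a window, 16.6% held it in at least 1 window. A match of 6 letters describes the sequence and is not evidence of binding. The upstream parts of Yap1 and Wwtr1 are shown because these are the coactivators of the pathway, and that of Ptpn14 because it rose most among the pathway genes described further on. Each is written 5′ to 3′ on the gene's own strand with the motif in capitals, without bases that GENCODE M21 places in exons. The stretch of Yap1 is chr9:8004597-8004829 (minus strand), that of Wwtr1 is chr3:57575911-57576160 (minus strand) and that of Ptpn14 is chr1:189728018-189728267 (plus strand).
Yap1: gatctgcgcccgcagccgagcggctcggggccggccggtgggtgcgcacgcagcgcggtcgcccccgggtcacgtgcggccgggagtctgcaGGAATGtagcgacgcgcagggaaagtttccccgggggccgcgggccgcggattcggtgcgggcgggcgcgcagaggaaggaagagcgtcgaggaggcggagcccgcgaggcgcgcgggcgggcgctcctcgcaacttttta
Wwtr1: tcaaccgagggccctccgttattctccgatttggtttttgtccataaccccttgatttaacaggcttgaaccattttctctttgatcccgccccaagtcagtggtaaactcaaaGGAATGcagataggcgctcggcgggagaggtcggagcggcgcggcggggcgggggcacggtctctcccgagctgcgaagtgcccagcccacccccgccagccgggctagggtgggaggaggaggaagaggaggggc
Ptpn14: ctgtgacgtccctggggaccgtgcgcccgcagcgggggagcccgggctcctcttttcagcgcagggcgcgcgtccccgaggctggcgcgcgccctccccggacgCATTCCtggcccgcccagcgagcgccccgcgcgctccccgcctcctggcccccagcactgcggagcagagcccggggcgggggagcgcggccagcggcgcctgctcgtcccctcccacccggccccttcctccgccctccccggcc
The first base of the motif lies at -141 from the start site in Yap1, at -136 in Wwtr1 and at -146 in Ptpn14. Yap1 and Wwtr1 carry it as GGAATG and Ptpn14 as CATTCC. Of these 3 genes Wwtr1 and Ptpn14 were called higher in knockout cells and Yap1 was not called. The window of Tead2, called lower, held no match. Of 15 genes with a window in the target signature described further on, 7 held the motif (46.7%), beside 16.6% of all genes. Beyond the members, single windows are given only for Ptpn14, Axl, Ajuba and Ccn1, and not for the other called genes. The window of Axl, called lower, held the motif at -233, and that of Ajuba, called higher, held it too. Lats2, Amotl2, Ankrd1 and Ccn1 also held it and were not called. Any link between the motif and the calls was not tested.

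The members that fell were 2 of the DNA-binding partners, Tead1 and Tead2. Tead1 (ENSMUSG00000055320.18, chromosome 7, 112679318 to 112906807) encodes a TEAD factor found in many tissues. It was counted at 318 CPM, 335 CPM and 291 CPM in WT and at 223 CPM, 258 CPM and 241 CPM in knockout cells. The lowest WT library lay above the highest knockout library. Tead1 fell by 0.38 on the log2 scale (standard error 0.09, 95% interval -0.57 to -0.20, adjusted p 0.00912 in edgeR), to 0.766 of its WT level. Without WT replicate B the log2 fold change was -0.34 and the adjusted p 0.0606, and each of the other 5 fits that left out a library kept the call. Tead2 (ENSMUSG00000030796.17, chromosome 7, 45215753 to 45233644) encodes the TEAD factor best known from early embryos. Its levels were 174 CPM, 170 CPM and 154 CPM in WT and 140 CPM, 135 CPM and 120.0 CPM in knockout cells. These groups were also separate. Tead2 fell by 0.33 on the log2 scale (standard error 0.09, 95% interval -0.53 to -0.14, adjusted p 0.0238). Its call was lost without WT replicate A (adjusted p 0.122), WT replicate B (0.0951), knockout replicate B (0.0733) or knockout replicate C (0.138).

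Tead4 was not called. It encodes the TEAD factor needed for the trophectoderm, the outer layer of the early embryo (ENSMUSG00000030353.15, chromosome 6, 128224288 to 128300813). It was counted at 22.1 CPM, 24.4 CPM and 22.2 CPM in WT and at 23.9 CPM, 27.5 CPM and 27.1 CPM in knockout cells. WT replicate B lay above knockout replicate A, so the groups overlapped. The log2 fold change was 0.19 (standard error 0.12, 95% interval -0.06 to 0.45, adjusted p 0.329). Tead3, the remaining TEAD gene, gave a log2 fold change of -0.04 (adjusted p 0.935) at 8.47 ± 0.437 CPM in WT.

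Levels of different genes were compared in TPM, which divides counts by exon length and scales each library to the same total. Summed over Tead1 to Tead4, the family stood at 221 ± 18.9 TPM in WT and 175 ± 7.31 TPM in knockout cells, 0.793 of the WT level. Every knockout sum, from 167 to 181 TPM, lay below every WT sum, from 199 to 233 TPM (exact two-sided permutation p = 0.1, adjusted p = 0.15 over 3 sums; the smallest p this design allows is 0.1). The sum of Yap1 and Wwtr1 was 135 ± 3.48 TPM in WT and 149 ± 10.2 TPM in knockout cells, with the same p. Tead2 was the most abundant TEAD transcript per length, at 53.9% ± 1.09 of the family in WT and 52.5% ± 2.81 in knockout cells. The share of Tead1 was 35.6% ± 0.719 in WT and 33.5% ± 2.38 in knockout cells. The share of Tead4 was 7.27% ± 0.380 in WT and 10.2% ± 0.909 in knockout cells, and each knockout library, from 9.21% to 11%, lay above each WT library, from 6.84% to 7.56%. This difference of 2.93 percentage points had the smallest p the design allows (exact two-sided permutation p = 0.1, adjusted p = 0.3 over 6 shares).

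**Figure D2:**
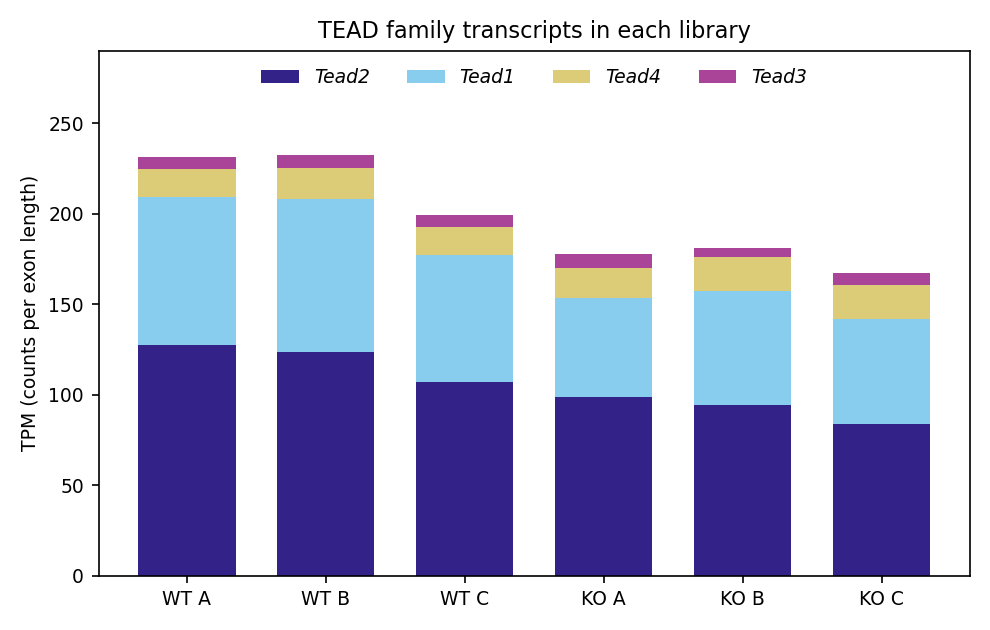
Stacked bars give the TPM of Tead2, Tead1, Tead4 and Tead3 in each library, with WT on the left and knockout (KO) on the right. The bars reach 199 to 233 TPM in WT and 167 to 181 TPM in knockout cells, and Tead2 and Tead1 make up most of each bar.

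The genes whose profile lay nearest to that of Tead1 were Xrcc6, Mcm6, Gstcd, Ercc6l2 and Atad2. Likeness was the Euclidean distance between log2 CPM values centred on each gene's mean over the 6 libraries, and it ranged from 0.07 to 0.11 for these 5 among 12847 genes averaging 50 counts or more. Their log2 fold changes lay between -0.38 and -0.34. Xrcc6 encodes a subunit of Ku, which binds DNA ends, and Mcm6 a subunit of the replicative helicase. Mcm6 lies on chromosome 1.

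Neither LATS kinase gene was called. Lats1 (ENSMUSG00000040021.13, chromosome 10, 7681214 to 7716460) was counted at 35.8 CPM, 42.3 CPM and 38.1 CPM in WT and at 38.2 CPM, 40.7 CPM and 37.4 CPM in knockout cells. The knockout values lay inside the WT range. Its log2 fold change was 0.00 with a 95% interval from -0.23 to 0.23 (standard error 0.11, adjusted p 0.996 in edgeR). Lats2 (ENSMUSG00000021959.16, chromosome 14, 57689662 to 57746123) was far less abundant, at 2.79 CPM, 2.22 CPM and 3.65 CPM in WT and 2.98 CPM, 3.28 CPM and 4.54 CPM in knockout cells. The groups overlapped, with a log2 fold change of 0.32 (standard error 0.29, 95% interval -0.31 to 0.95, adjusted p 0.544). With the median of chromosome 14 removed the log2 fold change of Lats2 was -0.21 (adjusted p 0.720). In the table's annotation 45.7% of the exon bases of Lats2 are shared with Gm49361, a gene on the same strand that had at most 6 counts in any library. How reads in shared exons were counted is not given in the sources used here, so the level of Lats2 is uncertain, and so is its share of the Lats1 and Lats2 transcripts, 7.80% ± 2.09 in WT and 9.48% ± 2.22 in knockout cells (exact two-sided permutation p = 0.4, adjusted p = 0.48 over 6 shares).

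Neither angiomotin member was called, and both spread widely over the knockout libraries. Angiomotins bind YAP and link it to junctions and to actin. Amot (ENSMUSG00000041688.16, X chromosome, 145446425 to 145505144) was counted at 13 CPM, 17.2 CPM and 15.4 CPM in WT. In the knockout it stood at 13.4 CPM in replicate A, 22 CPM in replicate B and 37.0 CPM in replicate C. Replicate A lay inside the WT range and the other knockout libraries above it. The log2 fold change of Amot was 0.67 (standard error 0.26, 95% interval 0.11 to 1.23), and the adjusted p of 0.114 missed the threshold. It was 0.96 (adjusted p 0.000834) without knockout replicate A and 0.23 (adjusted p 0.582) without knockout replicate C. Over all 16 alternatives the adjusted p of Amot ranged from 0.000103 to 0.582. Amotl2, a related gene that is also a YAP target (ENSMUSG00000032531.15, chromosome 9, 102716802 to 102733418), was counted at 68.1 CPM, 64.5 CPM and 75.3 CPM in WT. In the knockout it stood at 59.3 CPM, 68.7 CPM and 95.2 CPM. Knockout replicate A was the lowest of all 6 libraries and knockout replicate C the highest. The log2 fold change was 0.10 (standard error 0.14, 95% interval -0.20 to 0.41, adjusted p 0.705), and it was -0.11 (adjusted p 0.669) without knockout replicate C. The third angiomotin gene, Amotl1, gave a log2 fold change of -0.23 (adjusted p 0.147).

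Knockout replicate A was the lowest and replicate C the highest of the knockout libraries for 4 of the 10 genes, Yap1, Lats2, Amot and Amotl2, a pattern singled out after its values were seen. The same held for 18.8% of all tested genes and for 8 of the 10 primitive endoderm markers. The summed level of these markers was 501 CPM in knockout replicate A, 660 CPM in B and 966 CPM in C. Gata6, which defines this lineage, stood at 10.7 CPM, 10.7 CPM and 14.3 CPM, and Lama1, a laminin chain of its basement membrane, at 339 CPM, 430 CPM and 622 CPM. The part of these markers in the levels of Amot and Amotl2 was not tested. In such bulk libraries more cells of a type and more RNA per cell cannot be told apart.

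**Figure D3:**
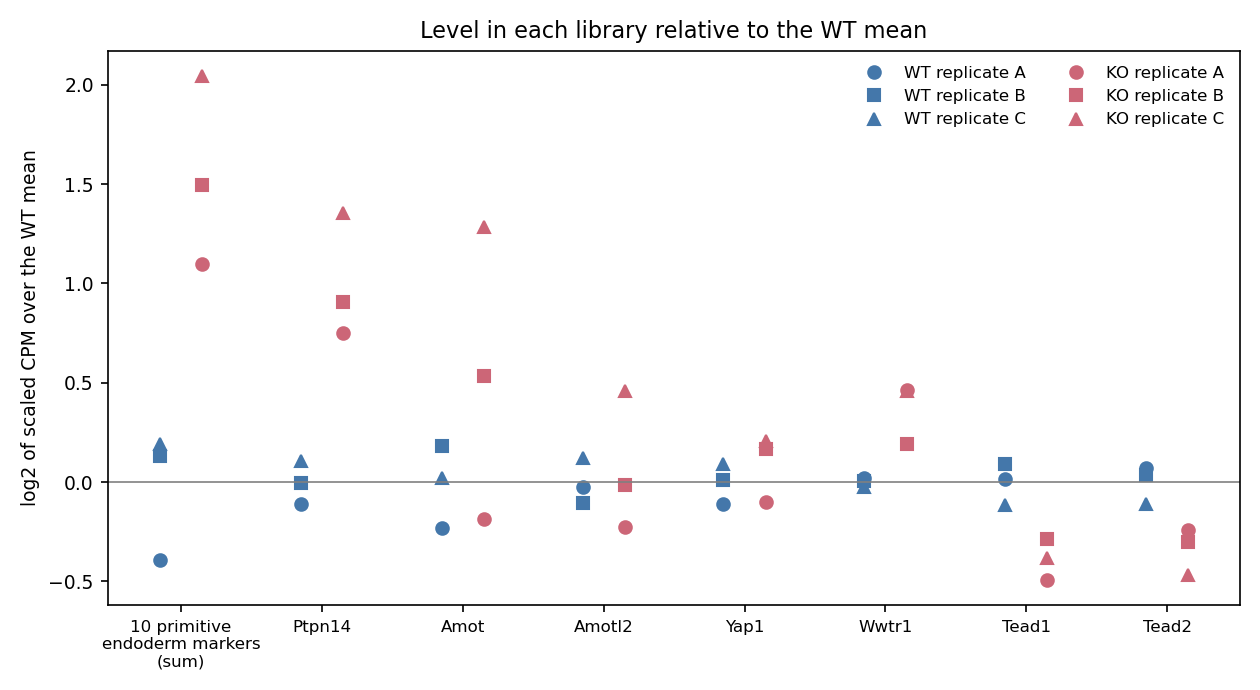
The vertical axis gives the log2 ratio of scaled CPM to the WT mean for the sum of 10 primitive endoderm markers and for 7 genes, with each library as 1 point (blue WT, red knockout). Knockout replicate C is the highest knockout library for the marker sum, Ptpn14, Amot, Amotl2 and Yap1, while Tead1 and Tead2 lie below 0 in all knockout libraries.

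Ankrd1 encodes a nuclear ankyrin-repeat protein and is one of the most used readouts of YAP-TEAD activity. In these cells it was low, with 16 to 58 counts per library (ENSMUSG00000024803.9, chromosome 19, 36111965 to 36120099). It was counted at 2.61 CPM, 1.52 CPM and 0.800 CPM in WT and at 2.43 CPM, 0.699 CPM and 1.61 CPM in knockout cells. The libraries of one genotype differed more than the genotypes. The log2 fold change was -0.08 (standard error 0.50, 95% interval -1.14 to 0.99, adjusted p 0.948). Changes inside that interval could not be told from none with these libraries. It was 0.43 without WT replicate A and 0.30 without knockout replicate B. The promoter window of Ankrd1 held the TEAD motif at -210 and -123 from the RefSeq start site, and that of Amotl2 held it at -65. GENCODE M21 places these matches in exons of longer transcripts, so only the 30 bases around each are shown, because both are established YAP-TEAD targets. They lie at chr19:36120037.0-36120066.0 and chr19:36119950.0-36119979.0 (minus strand) and at chr9:102717727.0-102717756.0 (plus strand).
Ankrd1 upstream site: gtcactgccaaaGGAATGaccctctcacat
Ankrd1 downstream site: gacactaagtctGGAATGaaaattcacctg
Amotl2 site: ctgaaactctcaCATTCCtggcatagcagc
Neither gene was called in knockout cells, and the 2 differed widely in abundance, with 2.07 ± 1.19 TPM for Ankrd1 and 39.0 ± 2.18 TPM for Amotl2 in WT.

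**Figure D4:**
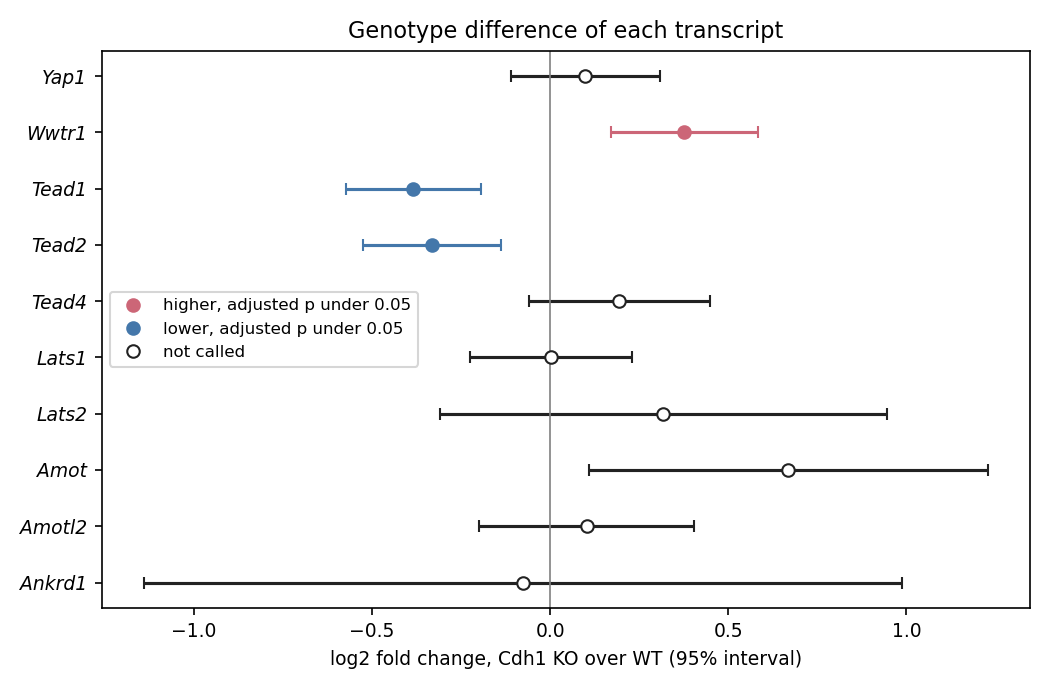
Log2 fold change of each gene, knockout over WT, with its 95% interval from edgeR's quasi-likelihood fit (3 libraries per genotype, intervals not adjusted for the number of genes); filled points passed an adjusted p of 0.05. Wwtr1 (0.38), Tead1 (-0.38) and Tead2 (-0.33) are filled, and Ankrd1 and Lats2 have the widest intervals with Amot.

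In order of WT level per exon length, Tead2 stood at 119 TPM, Yap1 at 100.2 TPM and Tead1 at 78.9 TPM. Amotl2 at 39.0 TPM and Wwtr1 at 35.1 TPM came next. Tead4 at 16.1 TPM and Lats1 at 13.4 TPM followed, and Amot stood at 5.17 TPM, Ankrd1 at 2.07 TPM and Lats2 at 1.12 TPM. Ankrd1 and Lats2 were the only neighbours in this order whose WT libraries overlapped. The exon lengths are those in the table, and for 8 of the 10 genes the exons differ from GENCODE M21. For Yap1 the table gives 4171 exon bases against 9257 in GENCODE M21, so its place in the order, its share of the Yap1 and Wwtr1 transcripts and their sum all depend on the annotation. Amotl2 has 4462 against 6289, Tead1 10051 against 13570 and Tead2 3501 against 4788, while Wwtr1 has 4779 in both. The order of Amotl2 and Wwtr1, and the TEAD shares and sums, therefore depend on it too.

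The rest of the pathway was read from 4 lists of 62 different genes, which include the 10 members; some genes stand in more than 1 list. Of these, 58 were tested, and 6 were called higher and 7 lower, where all tested genes had 7.6% called higher and 5.71% lower. Chromosomes 1 and 14 held 8 of the 62 genes and 6 of the 13 called ones. They held 1002 and 622 of all 17325 tested genes. With the medians of both removed, 1705 genes were called in all, against 2307. The share of all called genes that lie on them was not counted. The 6 of 13 therefore has no matching share beside it and is not read as particular to these lists.

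Among 13 kinases and kinase partners, Map4k4 and Stk38 fell and none rose in edgeR's test, with a median log2 fold change of -0.01. These 2 make up 15.4% of the list, near the 13.3% called among all tested genes. An unadjusted p under 0.05 was reached by 4 genes of this list. Mob1a was called higher without WT replicate C, and Taok3 was called lower without knockout replicate A, under upper-quartile scaling and under library totals. Map4k4, a kinase that can act on LATS beside the MST kinases, stood at 403 ± 12.7 CPM in WT and 245 ± 7.68 CPM in knockout cells. Its log2 fold change was -0.72 (adjusted p 3.6e-05), and it was -0.40 (adjusted p 0.00454) with the median of its chromosome 1 removed. Stk38, which encodes the LATS-related kinase NDR1, stood at 147 ± 15.2 CPM in WT and 101 ± 1.72 CPM in knockout cells. It fell by 0.54 on the log2 scale (adjusted p 0.00109). The MST kinase genes Stk3 and Stk4 had log2 fold changes of -0.08 (adjusted p 0.747) and -0.15 (adjusted p 0.330). For their scaffold Sav1 it was -0.01 (adjusted p 0.972). Atl1 overlaps 52.9% of the exonic sequence of Sav1 from the opposite strand.

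Of the 20 upstream and junctional regulators, 19 were tested and 3 rose, Ptpn14, Dlg5 and Ajuba. None was called lower by edgeR, with a median of 0.10, and 10 genes reached an unadjusted p under 0.05 in either direction, as did 4622 of all 17325 tested genes. The 3 called genes make up 15.8% of those tested, near the 13.3% over all genes. Fat4, an atypical cadherin, had 0 counts in every library. Ptpn14 encodes a phosphatase that binds YAP and is itself listed as a YAP-TEAD target. It was counted at 82.5 CPM, 88.7 CPM and 96.0 CPM in WT and at 150 CPM, 167 CPM and 227 CPM in knockout cells. Ptpn14 rose 2.04-fold (log2 fold change 1.03, standard error 0.13, adjusted p 0.000111). It lies on chromosome 1, whose genes were lower as a group, and with that median removed the log2 fold change was 1.35. Its knockout libraries stood in the order A, B, C, as did the primitive endoderm marker sum, whose part in the level of Ptpn14 was not tested. Dlg5, a junctional scaffold, and Ajuba, a LIM-domain protein that binds LATS, both lie on chromosome 14. Dlg5 stood at 80.3 ± 5.25 CPM in WT and 140 ± 11 CPM in knockout cells (log2 fold change 0.80, adjusted p 4.9e-05). Ajuba stood at 158 ± 28.6 CPM and 267 ± 49.3 CPM (log2 fold change 0.76, adjusted p 0.00205). With the median of chromosome 14 removed neither was called, with log2 fold changes of 0.27 (adjusted p 0.0809) for Dlg5 and 0.23 (adjusted p 0.357) for Ajuba. The tumour suppressor gene Nf2 gave a log2 fold change of -0.09 (adjusted p 0.517).

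In the list of coactivators, TEAD genes and cofactors the calls were those of Wwtr1, Tead1 and Tead2. Of its 10 genes 8 were tested, with a median of 0.03. The 3 called genes make up 37.5% of those tested, beside 13.3% of all tested genes. The cofactor genes Vgll3 and Vgll4, whose proteins compete with YAP for TEAD, had log2 fold changes of -0.42 (adjusted p 0.582) and 0.22 (adjusted p 0.487). Vgll1 and Vgll2 had at most 2 and 6 counts in any library.

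The YAP-TEAD target signature, genes described elsewhere as direct targets, moved in both directions. Of 22 genes 21 were tested, 3 rose and 3 fell, with a median of 0.03. These 6 make up 28.6% of those tested, beside 13.3% of all tested genes. Besides Ptpn14, those that rose were Arhgef17 (47.7 ± 4.86 CPM in WT, 68.8 ± 7.39 CPM in knockout cells, log2 fold change 0.53, adjusted p 0.00492), and Myof. Myof, which encodes the membrane protein myoferlin, stood at 32.9 CPM, 33.3 CPM and 41.5 CPM in WT and at 39.6 CPM, 49.9 CPM and 81.5 CPM in knockout cells. Its groups overlapped and its call was fragile (log2 fold change 0.67, adjusted p 0.0384). In 8 of 16 alternatives it was lost, with an adjusted p of 0.204 and a log2 fold change of 0.33 without knockout replicate C and an adjusted p of 0.195 in DESeq2. It was lost in 4 other fits that left out a library, those of WT replicates A, B and C (adjusted p 0.157, 0.166 and 0.0542) and of knockout replicate B (0.0597).

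The targets that fell were Axl, Nuak2 and Tgfb2. Of the 12 feeder fibroblast markers 6 were tested, with a median log2 fold change of -1.15. Of these, 2 were called lower, Acta2 by 3.30 and Col1a1 by 1.48 on the log2 scale (adjusted p 0.00013 and 0.00091 in edgeR). That is 33.3% of those tested, beside 5.71% called lower among all tested genes. The other tested markers were not called. Their log2 fold changes were -1.49 for Col3a1, -0.82 for Col1a2, -0.17 for Thy1 and 0.09 for Pdgfrb. The part of such cells in the levels of these targets was not tested. Axl, a receptor tyrosine kinase, was counted at 15 CPM, 15.8 CPM and 16.3 CPM in WT and at 8.4 CPM, 5.59 CPM and 8.17 CPM in knockout cells. The lowest WT library lay well above the highest knockout library. Axl fell by 1.09 on the log2 scale (standard error 0.18, adjusted p 0.000849). Nuak2 and Tgfb2 lie on chromosome 1. The kinase gene Nuak2 stood at 22.7 ± 3.28 CPM in WT and 14.2 ± 1.76 CPM in knockout cells (log2 fold change -0.68, adjusted p 0.00633). With the chromosome median removed its log2 fold change was -0.36 (adjusted p 0.149). Tgfb2, which encodes a TGF-beta ligand, stood at 2.84 ± 1.37 CPM in WT and 0.468 ± 0.469 CPM in knockout cells, with 2 of the 3 knockout libraries under the floor. Its log2 fold change was -2.60 (adjusted p 0.00697), and leaving out a library moved it from -2.13 (adjusted p 0.0664, without WT replicate A) to -3.82 (adjusted p 0.00146, without knockout replicate C). With the chromosome median removed it was -2.28 (adjusted p 0.0204).

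Ccn1 and Ccn2, the secreted matricellular targets most often used as YAP readouts, were not called. Ccn1 was counted at 30.02 CPM, 39.0 CPM and 36.6 CPM in WT and at 23.0 CPM, 24.1 CPM and 42.7 CPM in knockout cells. Ccn2 was counted at 14.2 CPM, 16.2 CPM and 17.1 CPM in WT and at 13.3 CPM, 17.6 CPM and 28.0 CPM in knockout cells. Knockout replicate A was the lowest and C the highest knockout library for 9 of the 21 tested targets, Ptpn14, Myof, Ccn1 and Ccn2 among them, and the part of the primitive endoderm markers in these levels was not tested. For Ccn1 and Ccn2, knockout replicate C was the highest of all 6 libraries and knockout replicate A the lowest. The log2 fold changes were -0.23 (95% interval -0.65 to 0.18, adjusted p 0.494) for Ccn1 and 0.31 (95% interval -0.14 to 0.77, adjusted p 0.390) for Ccn2. Gm15270, on the opposite strand, overlaps 22.9% of the exonic sequence of Ccn2. Without knockout replicate A, 6 targets were called higher, with Ccn2, Dock5 and Foxf2 added, and 4 were called lower, with Ccdc80 added. Foxf2 had 0 to 4 counts in WT and 7 to 20 in knockout cells, and was not tested in the reported fit. Ccdc80 had 2 and 0 counts in knockout replicates B and C. Each passed the filter of that fit only through the genotype where it was higher, so these 2 calls carry no weight of their own. Without knockout replicate C, 2 were called higher, as Myof was lost, and 5 lower, with Ccn1 and Gadd45a added. Foxf2 and Gadd45a were also called in other alternatives, both of them without WT replicate B.

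**Figure D5:**
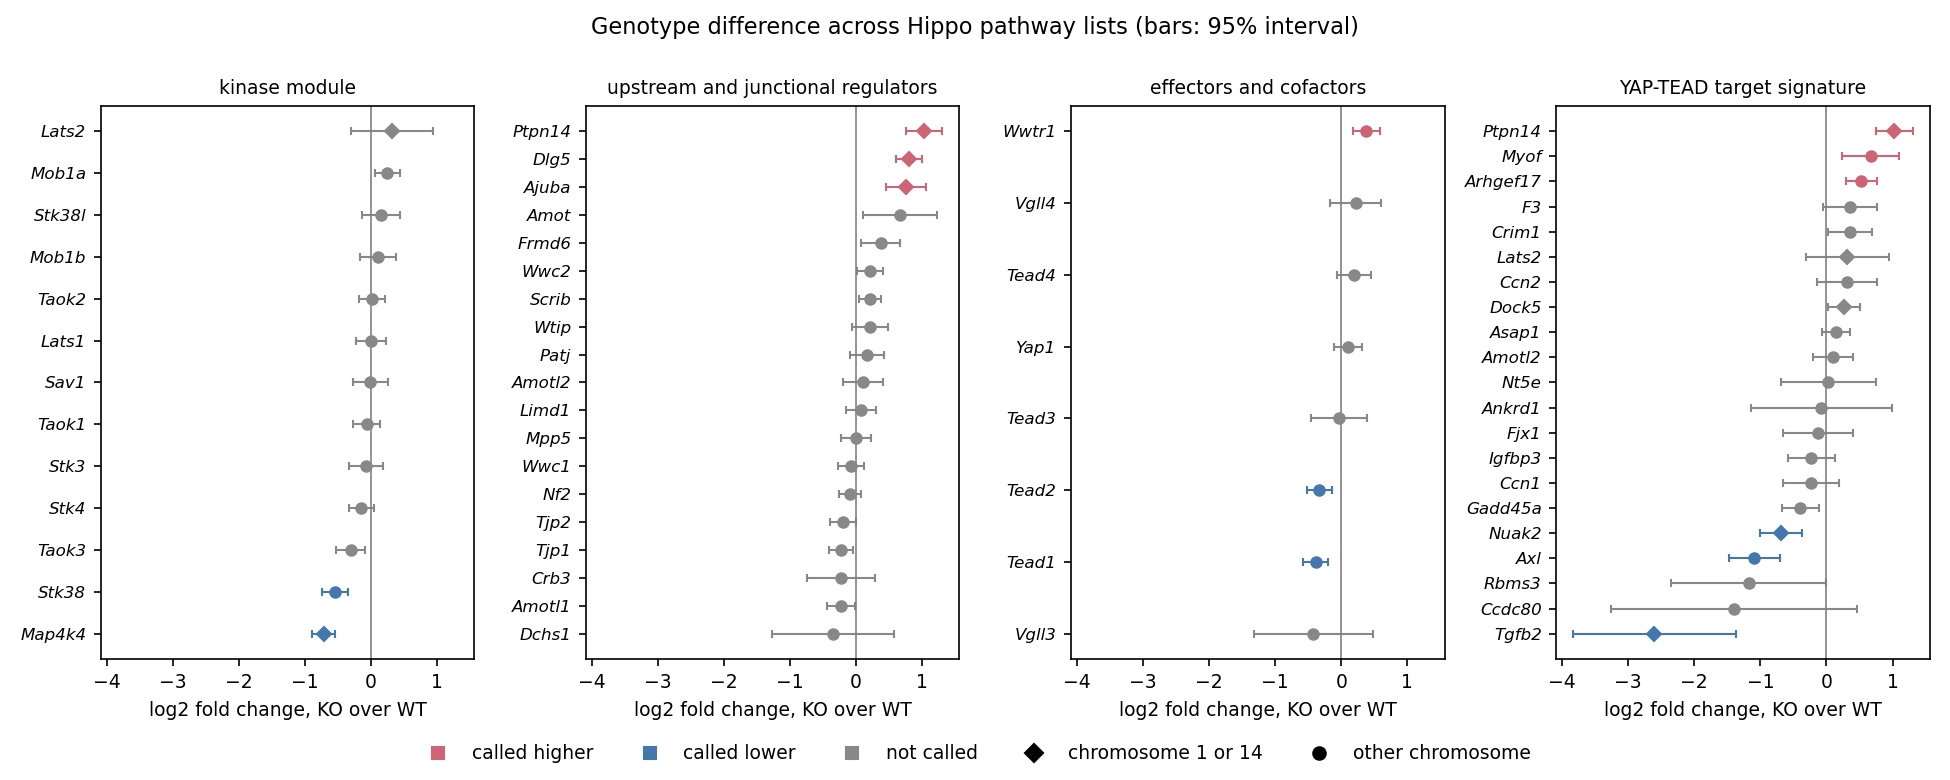
Log2 fold change, knockout over WT, of every tested gene in 4 pathway lists, with 95% intervals (3 libraries per genotype); colour marks the call and diamonds mark genes of chromosomes 1 and 14. Most genes lie near 0, the 2 called kinases lie below it, the 3 called junctional regulators (all diamonds) above it, and the target signature spreads to both sides.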

How the data were processed

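RNA of 3 WT and 3 Cdh1-/- libraries was prepared with TRIzol and a directional library kit, per the labels' protocols. Counts per gene, not normalized, were deposited by the authors in 1 table with exon coordinates and lengths. The submitters' processing notes name cutadapt 2.10, STAR 2.7.5b, featureCounts 2.0.1 and GRCm38. The strand setting, and whether mates or pairs were counted, is not given in the sources used here. Among counts from 1 to 10, 78.1% to 83.1% were even, which counting both mates could give, so the floor was set to 6 counts. Floors and counting errors cover counting error alone, as PCR can copy 1 molecule many times.

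The 10 genes and the lists were chosen with earlier results of these data known, so they are not independent evidence. Symbols came from a table of Ensembl identifiers, which named 55141 of 55401 genes. Genes passing filterByExpr (smallest count 10, smallest total 15) were scaled by TMM and fitted in edgeR 4.0.16 (R 4.3.3) by quasi-likelihood with genotype as the only term. P-values were adjusted by Benjamini-Hochberg over all 17325 tested genes and called at 0.05. Standard errors were derived from the F statistic. CPM values are scaled by TMM, and TPM values were computed from the counts and the exon lengths in the table. Family shares and sums were compared by exact two-sided permutation over libraries with scipy 1.17.1. The fitting procedure was tested on simulated data. Alternatives were RLE and upper-quartile scaling, library totals, no filter, a smallest count of 20, DESeq2 1.42.0, limma-voom (limma 3.58.1), the replicate letter as a block, counts divided by 2, removal of the medians of chromosomes 1 and 14, and each library left out. Named genes were the 10 members, up to 5 called genes per list with the largest changes, the 5 nearest profiles and Cdh1. Stk3, Stk4, Sav1, Mob1a, Nf2, Amotl1, Tead3, Vgll1, Vgll2, Vgll3, Vgll4, Fat4, Arhgef17, Ccn1 and Ccn2 were named outside that rule, after their values were seen. So were single cell type markers and genes called only under an alternative.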

Additional observations from a re-analysis of the deposited data

How the results depend on the processing

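No gene called among the 10 members changed direction in any of the 16 alternatives. Leaving out 1 library gave 1374 (without WT replicate A) to 2784 (without knockout replicate A) called genes in all, against 2307. Such fits gave 0 to 2 members called higher and 0 to 2 called lower, 0 to 1 and 0 to 2 of the list of coactivators, TEAD genes and cofactors, 0 to 1 kinases called higher, and 2 to 6 targets called higher and 2 to 5 called lower. Without a low-count filter 2 members were called higher (Amot, adjusted p 0.000103, besides Wwtr1) and 5 upstream regulators (Amot and Frmd6 added). With the medians of chromosomes 1 and 14 removed 1 upstream regulator was called higher, Ptpn14. Under upper-quartile scaling and under library totals 1 was called lower, Tjp1. The cause of these changes was not tested. Myof had an adjusted p of 0.0519 under upper-quartile scaling and 0.0594 in limma-voom.

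Members without a call changed sign in some settings. Lats1 had log2 fold changes of -0.034 under upper-quartile scaling, -0.033 under library totals, -0.0072 with a smallest count of 20 and -0.0069 with counts divided by 2, and ranged from -0.052 to 0.070 when a library was left out. Lats2 stood at -0.21 with the chromosome medians removed. When a library was left out, Ankrd1 ranged from -0.52 to 0.43 and Amotl2 from -0.11 to 0.24.

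The libraries share replicate letters, and whether the letters pair them was not settled. Deviations from the group means of same-letter libraries had correlations over genes of 0.19 for A, -0.10 for B and 0.38 for C. WT replicates A and C were closest to the knockout library of their own letter. WT replicate B was closest to knockout replicate A (0.23). With the replicate block 2686 genes were called in all, and the members called were again Wwtr1 (log2 fold change 0.37), Tead1 (-0.38) and Tead2 (-0.33). Amot had an adjusted p of 0.0556 with the block. The target Gadd45a (adjusted p 0.0609 in the reported fit) was called lower with the block, under upper-quartile scaling, library totals, no filter and DESeq2, and without WT replicate B or knockout replicate C. Leaving out a library left every difference of a family share with its sign but moved its size: the share of Yap1 differed by -5.76 to -1.87 percentage points, that of Tead1 by -2.87 to -0.76, that of Tead2 by -2.92 to -0.14, that of Tead3 by 0.26 to 1.13, that of Tead4 by 2.53 to 3.42 and that of Lats2 by 0.40 to 2.65. No share could reach an exact p under 0.1.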

Other observations

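Tead4 and Yap1 are known to switch on Cdx2 and Gata3 in the trophectoderm of the early embryo, so the trophectoderm markers were read beside the TEAD genes. Of 10 markers 8 were tested, and 1 of them fell, Tfap2a, a transcription factor of trophoblast and ectoderm. That is 12.5% of those tested, about the 13.3% called among all tested genes. Tfap2a was counted at 2.52 CPM, 3.33 CPM and 2.50 CPM in WT libraries A, B and C and at 0.774 CPM, 0.6115 CPM and 0.706 CPM in knockout cells (log2 fold change -1.99, standard error 0.36, adjusted p 0.00187 in edgeR). All 3 knockout libraries lay below all WT libraries, and 16.0% of the exon bases of Tfap2a lie under genes of the opposite strand. Cdx2 was counted at 1.53 CPM, 2.22 CPM and 2.50 CPM in WT and at 0.553 CPM, 0.961 CPM and 2.02 CPM in knockout cells (log2 fold change -0.81, 95% interval -1.78 to 0.15, adjusted p 0.270). For Gata3 the log2 fold change was -0.25 (adjusted p 0.792), and the knockout libraries ranged from 0.6115 CPM to 3.08 CPM. At these levels, a few times the floor, differences of the size seen for Cdx2 and Gata3 could not be told from none with these libraries. Eomes stood at 10.03 ± 2.38 CPM in WT and 12.01 ± 0.380 CPM in knockout cells (log2 fold change 0.26, adjusted p 0.404).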
